A study of Drosophila melanogaster with 17 samples.

Results

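Midgut progenitors in which RNA interference was directed against Sox100B, per the labels (Sox100B-RNAi, 3 libraries), were compared with wild type progenitors (5 libraries), which are 8 of the 17 libraries of the series. The comparison covered the 11738 nuclear genes, of 17490 features listed, without an exonic base in common with another gene, because the Sox100B libraries were listed differently from the wild type ones on mitochondrial and overlapping genes. The cells were GFP-labelled and were sorted from the dissected midgut of adult Drosophila at day 3, with some 10000 cells a library, and their RNA was amplified. The wild type group carries the title ESG and the genotype label wild type, and the depleted group carries the genotype label Sox100B-RNAi. The driver that directs the RNAi, the RNAi line, a control construct in the wild type flies and whether replicates are separate sorts are not given in the sources used here, so p-values measure the spread between these libraries, which may be technical. A further 3 libraries labelled as overexpressing Sox100B (labelled Sox100B-OE) came from the same processing as Sox100B-RNAi and are set beside it, as are 3 wild type libraries of enteroendocrine (EE) cells.

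The progenitors of the fly midgut are intestinal stem cells and their daughters, the enteroblasts, which mature into absorptive enterocytes, while hormone-secreting EE cells arise from the stem cells by a separate route. Stem cells carry the ligand Delta and activate the Notch receptor in enteroblasts, and JAK/STAT, EGF receptor and insulin signals set how often stem cells divide and how their daughters mature. Sox100B, the fly member of the SoxE group of transcription factors, is expressed in stem cells and enteroblasts and is known for a role in their proliferation and differentiation.

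Each level below is a rescaled RPKM, the reads per kilobase of exon per 1000000 reads in those 11738 genes, and levels are listed in the order of the replicate numbers. The reads in these genes came to between 10.3 and 13.1 M in each of the 8 libraries. Between 20.9 and 31.8% of the assigned reads lay on mitochondrial features in Sox100B-RNAi and 17.1 to 21.4% in the libraries labelled Sox100B-OE, against 0% in the progenitors, and since no untreated library shares the processing of the Sox100B libraries, that processing and the treatment cannot be told apart in any difference from progenitors. Progenitor replicates 4 and 5 correlated across genes at r = 0.977 with each other and at 0.899 to 0.931 with replicates 1 to 3. Among replicates 1 to 3 themselves r was 0.936 to 0.961. No label marks this split. Differences are log2 fold changes on the log2(rescaled RPKM + 1) scale, Sox100B-RNAi minus progenitor, with their limma standard error (SE), and calls required both an adjusted p below 0.01 and a log2 difference of more than 0.5 in size.

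The level of Sox100B (FBgn0024288, BDGP6 3R from 31065253 to 31083407, plus strand) was 171, 162, 214, 390.3 and 420.1 in the 5 progenitor libraries and 83.7, 75.7 and 45.5 in the 3 Sox100B-RNAi libraries. All 3 depleted libraries were below all 5 progenitor libraries, and progenitor replicates 4 and 5 were the highest. The means were 271 ± 124 (SD, n = 5) and 68.3 ± 20.1 (SD, n = 3), which on the log2 scale differed by -1.90 ± 0.37 (SE), so 26.8% of the progenitor level remained. In the fit over all genes the adjusted p was 0.01202, which misses the threshold of 0.01, and the exact two-sided permutation test over the 8 libraries gave p = 0.0179, the smallest that 56 arrangements allow. Against progenitor replicates 1 to 3 the log2 difference was -1.44 (36.9% of their level), and against replicates 4 and 5 it was -2.60 (16.5%), each with an exact permutation p of 0.1, the smallest possible. The libraries labelled Sox100B-OE held 233, 183 and 294, inside the progenitor range, so their label was not borne out by the level of the gene, and Sox100B-RNAi was at 28.8% of their level (exact permutation p = 0.1, the smallest possible). The 3 EE libraries were lower still, at 20.8, 13.6 and 12.1.

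**Figure D1:**
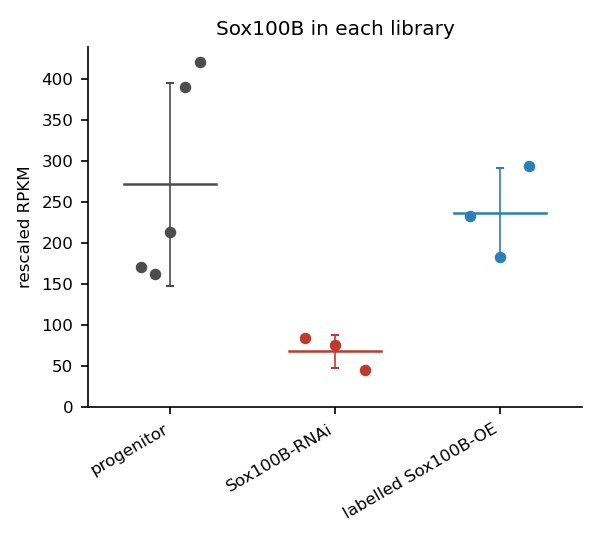
Sox100B level in rescaled RPKM (vertical axis) in each library of the progenitor (n = 5), Sox100B-RNAi (n = 3) and labelled Sox100B-OE (n = 3) groups, with points for libraries, a bar for the mean and whiskers for the SD. The 3 Sox100B-RNAi libraries sit between 45.5 and 83.7, below the 5 progenitor libraries at 162 to 420.1.

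Of the 5408 genes that passed the filter on low values (a level of at least 1 in at least 3 of the 8 libraries), 189 (3.49%) were called, 141 (2.61%) higher and 48 (0.888%) lower in Sox100B-RNAi. The median log2 fold change of all genes tested was 0.01. A gene could pass the filter through 1 group alone. That held for 67 genes with a level of at least 1 in the 3 depleted libraries and in 0 progenitor libraries, of which 38 were called higher, and for 227 genes with such a level in progenitors alone, of which 11 were called lower. Leaving out the 67 genes, 103 calls were higher. Every called gene also differed by more than 1 on the log2 scale, and in 985 genes (18.2%) the 2 groups did not overlap, 529 of them (9.78%) with higher values in Sox100B-RNAi and 456 (8.43%) with lower. The number called fell to 114 without progenitor replicate 1 and to 110 without replicate 5, and to 35, 57 and 39 without Sox100B-RNAi replicate 1, 2 or 3, settings under which genes seen in only the depleted libraries can no longer pass a filter in 3 libraries. With a filter in 2 libraries, an alternative chosen after seeing the data, those 3 counts were 95, 106 and 74, and the losses of single calls given below use that filter where a depleted library is left out. Of the 189 calls, 60 were kept whichever of the 8 libraries was left out. With progenitor replicates 1 to 3 as the only controls, 152 genes were called, 110 of them among the 189, and against replicates 4 and 5 alone 183, 101 of them among the 189. Between Sox100B-RNAi and the libraries labelled Sox100B-OE, limma called 993 of 5357 genes (18.5%), of which 429 (8.01%) had the higher level in Sox100B-RNAi and 564 (10.5%) the lower.

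**Figure D2:**
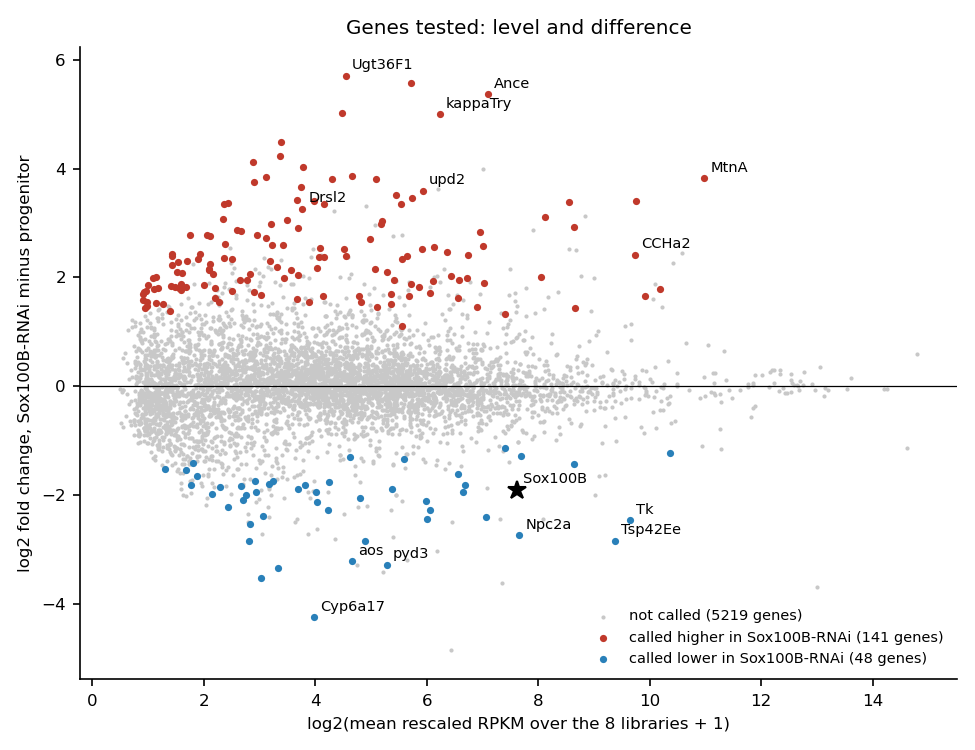
Each of the 5408 genes tested, by the log2 of its mean rescaled RPKM plus 1 over the 8 libraries (horizontal axis) and its log2 fold change, Sox100B-RNAi minus progenitor (vertical axis), with called genes in red (141 higher) and blue (48 lower), all others in grey and Sox100B as a star. Called genes lie at every level from about that of the filter up to MtnA at the right, and Sox100B lies among the grey points at -1.90.

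The genes with the largest falls included a feedback regulator of EGF receptor signalling, a hormone and a sterol carrier. The level of aos, which encodes the secreted inhibitor Argos that binds the EGF receptor ligand Spitz, was 47.6, 24.5, 39.4, 27.4 and 46.3 in progenitors and 3.37, 3.30 and 2.27 in Sox100B-RNAi (-3.22 ± 0.28, adjusted p = 0.000176). Its lowest progenitor library was above its highest depleted library, and the libraries labelled Sox100B-OE held 64.2, 42.1 and 34.02. For pyd3, an enzyme of pyrimidine breakdown, the level fell from 52.3, 49.6, 70.5, 67.2 and 48.5 to 6.48, 3.05 and 6.0 (-3.28 ± 0.26, adjusted p = 0.000121), against 319, 318 and 362 in the libraries labelled Sox100B-OE. Npc2a, a sterol-binding protein of lysosomes, fell from 249.9, 217, 314, 399.5 and 294 to 43.2, 53.03 and 33.1 (-2.74 ± 0.24, adjusted p = 0.000176), again with the libraries labelled Sox100B-OE above both groups at 586, 830.4 and 1113. Ugt35A1, an enzyme that adds sugar groups to small molecules, followed the same order of the 3 groups, with 57.2–127 in progenitors, 11.8–17.8 in Sox100B-RNAi and 229–261 in the libraries labelled Sox100B-OE (-2.45 ± 0.29, adjusted p = 0.000973). The tetraspanin membrane protein Tsp42Ee fell from 965, 1210.2, 458, 1215 and 1057 to 106, 188 and 108 (-2.84 ± 0.34, adjusted p = 0.00110), a call lost without Sox100B-RNAi replicate 3 (adjusted p = 0.0104). The call of Dscam4, an immunoglobulin-family adhesion protein, which went from 2.97–13.7 to 0.415–0.931 (-2.53), was lost without progenitor replicate 1, 2, 3 or 5 or any single depleted library, with adjusted p up to 0.0339.

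Cyp6a17, a cytochrome P450, had the largest fall of all called genes, from 16.8, 18.8, 23.9, 25.1 and 32.9 to 0.0561, 0.748 and 0.0884 (-4.24 ± 0.29, adjusted p = 6.15e-05). It was also near 0 in the libraries labelled Sox100B-OE, at 0, 0.143 and 0.252, and stood at 11.8, 7.54 and 10.6 in wild type EE cells, so every Sox100B library was low and every wild type library named here was not. CG8008 fell from 9.95–19.7 to 0.0833–1.24 (-3.35 ± 0.31, adjusted p = 0.000254), with 9.15–12.8 in the libraries labelled Sox100B-OE, and CG43187 fell from 32.3–57.5 to 2.94–9.08 (-2.84 ± 0.33, adjusted p = 0.000953). Both are named by annotation number alone. The other members of the 12 largest falls were Tk, given with the hormones, and a pair of short RNA genes that rested on few reads. Among the 12, Cyp6a17, Dscam4, tRNA:Ile-AAT-1-3 and mir-2b-2 passed the filter through the progenitor libraries alone. The isoleucine tRNA gene tRNA:Ile-AAT-1-3 held 49 reads over the 5 progenitor libraries and 0 in the 3 depleted ones, at least 3.21-fold lower against a floor of 3 reads a library. This tRNA gene lies within the span of ATP8A, on the same strand, and ATP8A was also called lower (-1.94). Whether the reads came from ATP8A was not tested. The microRNA gene mir-2b-2 held 45 reads against 1, and its call was lost without progenitor replicate 1, 2 or 3 or any single depleted library (adjusted p up to 0.0421). Reads of tRNA and microRNA genes with near-identical copies cannot be placed with certainty.

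Apart from MtnA, the genes with the largest rises had low levels in wild type progenitors, and 6 of the 12 (Ugt36F1, Zmynd10, Mst77F, Vajk3, rdo and snRNA:U5:23D) passed the filter through the depleted libraries alone. Ugt36F1, a further sugar-adding enzyme of the family, was listed at 0, 0, 0.0977, 0.0990 and 0.0568 in progenitors and at 52.3, 96.5 and 30.6 in Sox100B-RNAi (5.71 ± 0.34, adjusted p = 2.95e-05), on 5 reads against 3337. Its libraries labelled Sox100B-OE were as low as the progenitors, at 0.115, 0.147 and 0.259. Ance, the fly relative of angiotensin-converting enzyme, a secreted peptidase, rose from 14.96, 11.5, 12, 3.96 and 1.79 to 258, 303 and 481 (5.37 ± 0.55, adjusted p = 0.000546), against 7.39–26.5 in the libraries labelled Sox100B-OE and 431–634 in EE cells. Its level in the depleted libraries therefore overlapped that of EE cells. The trypsin kappaTry rose from 4.90, 12.6, 13.3, 1.42 and 1.12 to 149, 159 and 252 (5.01 ± 0.66, adjusted p = 0.00163), a call lost without Sox100B-RNAi replicate 3 (adjusted p = 0.0146). MtnA, a metallothionein that binds copper and other metals, rose from 385, 247, 493, 282 and 302 to 3753, 5834 and 4814 (3.83 ± 0.25, adjusted p = 6.15e-05), and at 4800.4 ± 1041 (SD, n = 3) it had the highest level of the 12. Its libraries labelled Sox100B-OE, at 79.8, 193 and 236, lay below all 5 progenitor libraries.

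Some of these genes are otherwise known from cilia or sperm. Zmynd10, which flies and vertebrates need to assemble the dynein arms of motile cilia, rose from 0.383–0.955 to 42.2–72.8 (5.03 ± 0.26, adjusted p = 2.14e-05), and the libraries labelled Sox100B-OE lay between at 16.2–23.2. The sperm chromatin gene Mst77F rose from 0.179–0.627 to 12.4–23.6 (3.85 ± 0.27, adjusted p = 6.90e-05), and copies of it on the Y chromosome make the placing of its reads uncertain. Vajk3 rose from 1 read over the 5 progenitor libraries to 836 over the 3 depleted ones, with levels of 12.2, 19.5 and 19.4 (4.13 ± 0.24, adjusted p = 2.95e-05). For rdo, named for reduced ocelli, the level went from 0.0426–0.259 to 13.7–35.2 (4.48 ± 0.30, adjusted p = 6.15e-05), and for the long noncoding RNA lncRNA:CR44145 from 0.714–2.22 to 54.4–251 (5.56 ± 0.45, adjusted p = 0.000124). Both stayed at or near the progenitor level in the libraries labelled Sox100B-OE, at 0–0.170 and 1.84–2.80. CG42792 rose from 0.526–2.45 to 19.7–46.2 (4.03 ± 0.37, adjusted p = 0.000230). The call of CG3739, which went from 0.721–8.19 to 29.1–120.2 (3.87), was lost without progenitor replicate 1, 4 or 5 or any single depleted library (adjusted p up to 0.0400). One copy of the spliceosomal U5 RNA, snRNA:U5:23D, went from 1 read to 105 (4.24 ± 0.45, adjusted p = 0.000620), and its near-identical copies make this assignment uncertain.

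**Figure D3:**
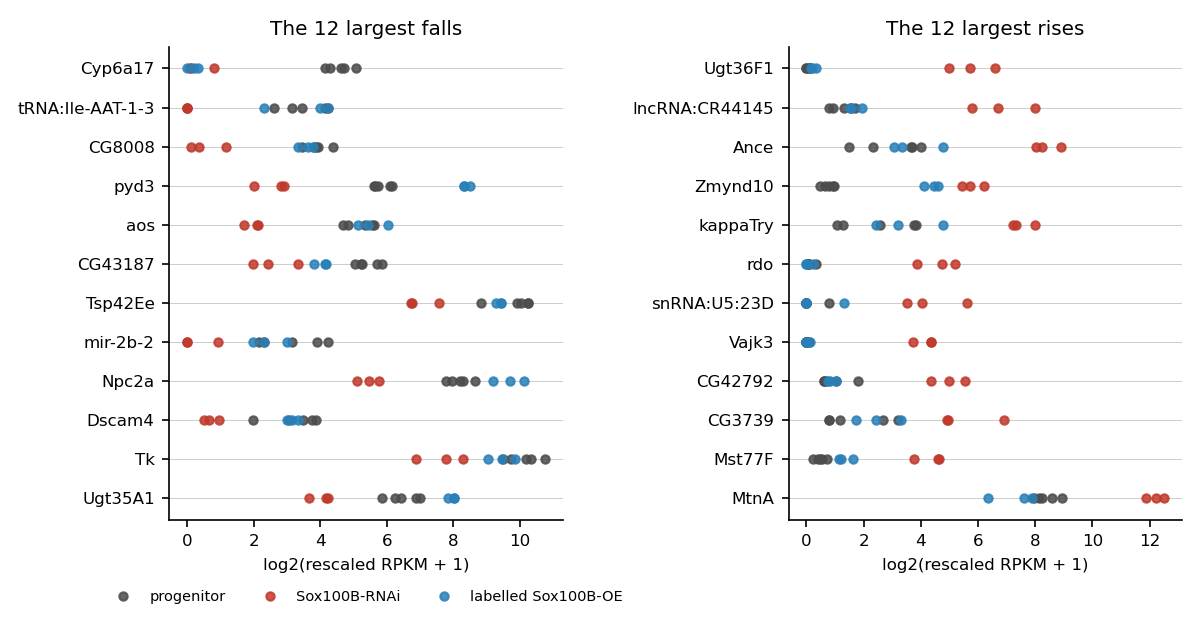
The 12 genes with the largest falls (left) and the 12 with the largest rises (right) among calls with no overlap of the groups, with 1 point per library on a log2(rescaled RPKM + 1) axis. Progenitor and Sox100B-RNAi points are apart in every row by construction, while points of libraries labelled Sox100B-OE lie with the depleted ones for Cyp6a17 and with the progenitors for genes such as Ugt36F1, rdo and aos.

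Over the 15 stem cell and enteroblast genes tested the median log2 fold change was 0.05 (all genes 0.01). Of the 15, 1 rose and 0 fell, against 2.61% and 0.888% of all genes tested. That gene was Delta, the Notch ligand by which stem cells are recognised, which rose from 27.7, 15.8, 12.5, 13.9 and 12.6 in progenitors to 80.8, 44.5 and 162 in Sox100B-RNAi (2.34 ± 0.41, adjusted p = 0.00733). The depleted libraries were spread widely, with replicate 3 the highest, and all 3 were above every progenitor library. The libraries labelled Sox100B-OE were below every progenitor library, at 8.11, 7.87 and 7.27, and differed from Sox100B-RNAi by 3.27 (adjusted p = 0.00103). The call of Delta was lost without progenitor replicate 2, 3, 4 or 5 or Sox100B-RNAi replicate 1 or 3, with adjusted p up to 0.0328. Sox21a, a Sox factor of enteroblasts and the other member of the family that passed the filter, stood at 16.1–92.2 in progenitors and 41.5–69.02 in Sox100B-RNAi (0.04 ± 0.49, adjusted p = 0.983). The enteroblast regulator klu (0.07), the JAK/STAT transcription factor Stat92E (-0.13) and the midgut factor GATAe (0.05) were also not called. Of these genes, Sox21a and klu set progenitors apart from EE cells. Sox21a was at 0.840–1.58 and klu at 5.67–9.69 in the EE libraries, against 37.2–70.1 for klu in progenitors. The gene esg, for which the group is titled, was not analysed here.

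Of the 19 Notch pathway genes tested, Delta was called higher and 0 were called lower (2.61% and 0.888% of all genes tested). There were 4 that did not overlap between the groups, all with higher values in Sox100B-RNAi (9.78% of all genes tested). The median of the list was 0.43. Beside Delta these were Notch target genes of the Enhancer of split complex, none of which was called. E(spl)mbeta-HLH, a repressor of the HLH family, was at 848, 454, 771, 338 and 713 in progenitors and 2134, 1441 and 1845 in Sox100B-RNAi (1.59 ± 0.31, adjusted p = 0.0123). E(spl)malpha-BFM was at 714, 220.4, 945, 332 and 647 and 2962, 1176 and 1782 (1.87 ± 0.48, adjusted p = 0.0389), with replicate 1 the highest depleted library for each of these 2 genes. E(spl)m8-HLH was at 1.74–10.5 in progenitors and 21.4–28.2 in Sox100B-RNAi (adjusted p = 0.0251). E(spl)m3-HLH overlapped between the groups, at 160.2–1029 and 480.3–2350.5 (adjusted p = 0.311), and the receptor N (-0.06) and its DNA-binding partner Su(H) (0.07) lay near 0 on the log2 scale.

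Both JAK/STAT ligands that were tested rose, and 0 of the 9 genes of the pathway fell. Of all genes tested 2.61% rose and 0.888% fell. The cytokine upd2 went from 16.4, 3.81, 25.9, 8.02 and 7.61 to 174, 88.6 and 156 (3.59 ± 0.51, adjusted p = 0.00271), with 33.7, 9.71 and 11.1 in the libraries labelled Sox100B-OE. For upd3, the cytokine made by stressed and damaged midgut cells, the levels were 64.3, 40.5, 57.3, 45.1 and 34.3 and 250.1, 219.5 and 124 (1.99 ± 0.29, adjusted p = 0.00290), with 127, 70.7 and 65.1 in the libraries labelled Sox100B-OE. The call of upd2 was lost without Sox100B-RNAi replicate 1 or 3 (adjusted p up to 0.0200) and that of upd3 without replicate 1 or 2 (up to 0.0186). Socs36E, a target of the pathway that inhibits it, was at 246, 77.9, 325, 58.1 and 67.3 in progenitors and 1059.5, 447 and 701 in Sox100B-RNAi and was not called (2.52 ± 0.59, adjusted p = 0.0265), although the groups did not overlap. The receptor dome (0.02), the kinase hop (-0.03) and Stat92E (-0.13) were not called, and the median of the 9 genes was 0.08.

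In the EGF receptor pathway aos was the 1 gene of 17 that was called (5.88%, against 3.49% of all genes tested). The median of the list was 0.26. The protease rho, which releases the active ligand, was at 11.9, 10.03, 12.1, 25.3 and 19.2 in progenitors and 87.6, 61.99 and 29.7 in Sox100B-RNAi (1.81 ± 0.39, adjusted p = 0.0192), not called, with groups that did not overlap. Its direction was opposite to that of aos. The ligand spi was at 283–357 and 199–278 (-0.39 ± 0.17, adjusted p = 0.198), the receptor Egfr had a log2 fold change of 0.49, and those of the pathway targets sty and Mkp3 were 0.39 and 0.99, all without a call.

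In the insulin and TOR pathway 2 of 15 genes rose and 0 fell, against 2.61% and 0.888% of all genes tested. Thor, the translation inhibitor (4E-BP) that insulin and TOR signals hold in check, rose from 529, 338, 423, 935 and 557 to 1572, 1659 and 1720.3 (1.65 ± 0.29, adjusted p = 0.00779), and Pi3K21B, the regulatory subunit of the lipid kinase of the pathway, rose from 27.4, 31.4, 20.6, 14.5 and 22.9 to 85.5, 56.7 and 60.7 (1.51 ± 0.27, adjusted p = 0.00831). Both calls were near the threshold. That of Thor was lost without progenitor replicate 1, 2, 3 or 5 or any single depleted library (adjusted p up to 0.0408), and that of Pi3K21B without progenitor replicate 1, 3, 4 or 5 or any single depleted library (up to 0.0411). The kinase Pdk1 was at 18.6–40.5 and 54.3–118 (1.31 ± 0.31, adjusted p = 0.0294) and was not called. In the Wingless (11 genes), BMP and activin (15 genes) and Hippo (10 genes) pathways limma called 0 genes, with medians of 0.03, 0.10 and -0.28. At an unadjusted p below 0.05 there were 2, 5 and 1 genes, against 24.1% of all genes tested.

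Peptide hormones moved in both directions. Of 11 tested, 2 rose and 1 fell, and 7 did not overlap between the groups, 5 with higher and 2 with lower values in Sox100B-RNAi. Of all genes tested 2.61% rose and 0.888% fell, and 9.78% and 8.43% did not overlap with higher and lower values. Tachykinin (Tk) fell from 849, 726, 1302, 1156 and 1719 to 217, 315 and 116 (-2.46 ± 0.36, adjusted p = 0.00316), a call lost without Sox100B-RNAi replicate 1 or 3 (adjusted p up to 0.0165). NPF was the most abundant hormone in progenitors, at 13838, 11894, 14763, 8047 and 11919, and stood at 1287, 3544 and 167 in Sox100B-RNAi. The depleted libraries ranged widely and all were below the progenitor libraries, but NPF was not called (-3.69 ± 0.77, adjusted p = 0.0159). The libraries labelled Sox100B-OE held 14646–23368 for NPF and 529–916 for Tk.

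CCHa2, by contrast, rose from 399, 308, 308, 246 and 224 to 3008, 1351 and 935 (2.42 ± 0.35, adjusted p = 0.00296), against 214, 67.3 and 139 in the libraries labelled Sox100B-OE, and its call was lost without Sox100B-RNAi replicate 2 (adjusted p = 0.0115). The short neuropeptide sNPF went from 0.374–1.64 to 4.12–10.6 (1.87 ± 0.34, adjusted p = 0.00850), and its call was lost whichever of the 8 libraries was left out (adjusted p up to 0.0332). AstA was at 184, 294, 42.5, 222 and 29.9 in progenitors and 970.2, 965 and 948 in Sox100B-RNAi (3.12 ± 0.71, adjusted p = 0.0231), and CCHa1 was at 65.3–365 and 747–817 (adjusted p = 0.0432). Neither was called, the progenitor libraries themselves differed several fold, and the groups did not overlap. AstC (701–3258 and 2506–3645), Orcokinin (428–6848 and 739–1626) and Dh31 (54.4–411 and 30.9–58.7) overlapped between the groups.

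These hormones are made by EE cells, and in the wild type EE libraries Tk was at 12333–13838, CCHa2 at 12793–13881, NPF at 44882–67142 and AstA at 6596–15773, each above all progenitor and Sox100B-RNAi libraries. In sorted bulk RNA, more or fewer cells of a type and more or less RNA per cell cannot be told apart, and the part of EE cells in the sorted cells was not tested. Summed over the list, hormone levels ran from 13354 to 26169 in progenitors, from 6244 to 12372 in Sox100B-RNAi and from 24026 to 41584 in the libraries labelled Sox100B-OE. These sums follow abundant members such as NPF, which was not called, and do not describe the list as a whole. Over the 11 hormones tested the median log2 fold change was 0.65, with 5 apart and higher in Sox100B-RNAi and 2 apart and lower.

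**Figure D4:**
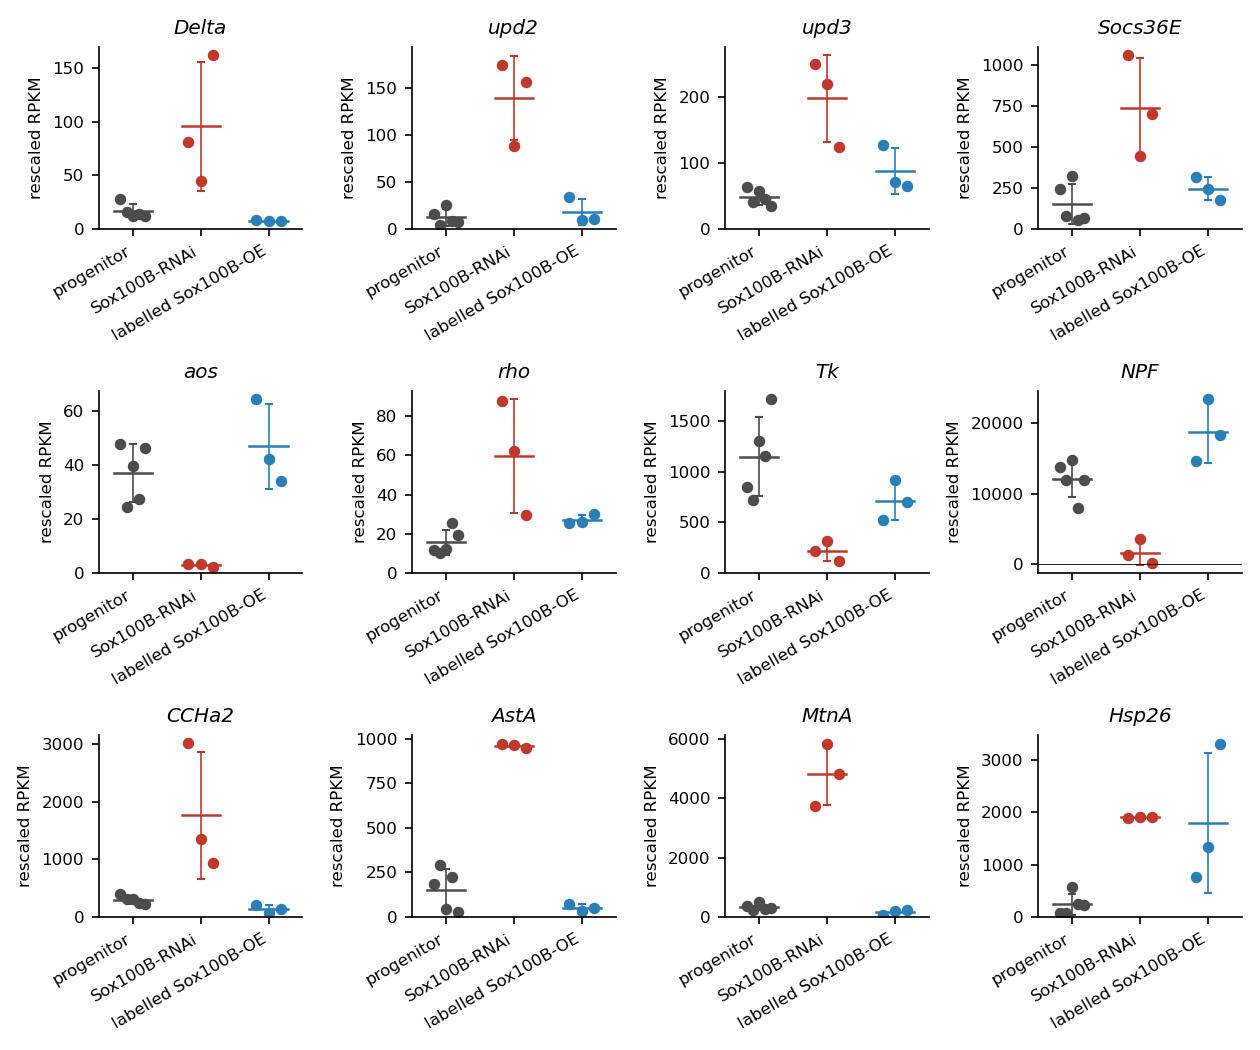
Rescaled RPKM (vertical axes, each with its own scale) of 12 signalling, hormone and stress genes in each progenitor (n = 5), Sox100B-RNAi (n = 3) and labelled Sox100B-OE (n = 3) library, with points for libraries, a bar for the mean and whiskers for the SD. Tk and aos are low in the 3 Sox100B-RNAi libraries, NPF ranges there over 167–3544, and CCHa2, MtnA, upd2 and Delta are high there alone, while Hsp26 is high in both Sox100B groups.

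Transcription factors of the EE lineage had a median log2 fold change of 1.10 over the 14 tested, of which 3 (21.4%) rose and 0 fell, against 2.61% of all genes tested that rose. Of the 3, hbn and Poxn passed the filter through the depleted libraries alone, and without them 1 member rose and the median was 1.03. Fer1 rose from 4.35, 4.48, 2.26, 3.67 and 1.58 to 26.8, 12.1 and 16.9 (2.19 ± 0.35, adjusted p = 0.00512), hbn from 0.320–0.833 to 2.41–5.90 (1.77 ± 0.28, adjusted p = 0.00522) and Poxn from 0.167–0.711 to 1.84–4.22 (1.51 ± 0.27, adjusted p = 0.00804). All 3 remained well below the EE libraries, which held 131–181, 14.1–22.03 and 27.3–33.5, and hbn and Poxn rested on 57 and 58 reads over the 5 progenitor libraries. Each call depended on single libraries. That of Fer1 was lost without progenitor replicate 3 or Sox100B-RNAi replicate 1 or 3 (adjusted p up to 0.0281). That of hbn was lost without progenitor replicate 1, 2, 3 or 5 or Sox100B-RNAi replicate 1 or 3 (up to 0.0302), and that of Poxn whichever progenitor library, or Sox100B-RNAi replicate 1 or 3, was left out (up to 0.0405). The proneural gene sc was at 1.82 (adjusted p = 0.0631), and mamo at -1.34 (adjusted p = 0.0151) and exex at -1.35 (adjusted p = 0.0252) had values in the other direction, all without a call.

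Genes of regulated secretion and prohormone processing, which EE cells use to make and release hormones, had 0 calls by limma among 15, 6 genes at an unadjusted p below 0.05 and a median of -0.43. Of the 15, 6 did not overlap between the groups, 1 higher and 5 lower in Sox100B-RNAi (9.78% and 8.43% of all genes tested). The prohormone convertase amon was at 74.2, 55.8, 81.3, 32.3 and 32.5 in progenitors and 28.5, 21.9 and 15.3 in Sox100B-RNAi (-1.24 ± 0.36, adjusted p = 0.0617), and the dense-core vesicle protein IA-2 at 211–330.0 and 92.2–180.0 (-0.84 ± 0.25, adjusted p = 0.0684). The vesicle fusion protein nSyb overlapped between the groups, at 9.999–14.3 and 9.30–14.8. Summed over the list the levels were 394 to 532 in progenitors and 220.5 to 343 in Sox100B-RNAi.

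Among digestive genes of enterocytes kappaTry was the 1 called of 24 serine proteases (4.17%, against 3.49% of all genes tested). Of 10 amylases, maltases and lysozymes the 1 called was the maltase Mal-A3, which went from 5.12, 6.18, 4.39, 4.96 and 1.33 to 17.7, 17.6 and 29.9 (2.13 ± 0.38, adjusted p = 0.00850). That call was lost without progenitor replicate 1, 2, 3 or 4 or any single depleted library (adjusted p up to 0.0492), and the libraries labelled Sox100B-OE spread over 3.40–23.6. The summed level of the serine proteases ran from 78.6 to 2275 within progenitors and from 401 to 3221 in Sox100B-RNAi, so the groups overlapped. Brush border genes had 0 calls by limma among 7, with 2 at an unadjusted p below 0.05. In the list of lipid uptake, synthesis and storage, 2 of 21 genes fell and 0 rose, against 0.888% and 2.61% of all genes tested. Beside Npc2a this was Mtp, the transfer protein that loads lipid onto lipoproteins, from 9.58, 13.8, 5.38, 13.6 and 14.3 to 2.71, 2.52 and 1.98 (-1.79 ± 0.32, adjusted p = 0.00850), a call lost without progenitor replicate 1, 2, 4 or 5 or any single depleted library (adjusted p up to 0.0454). The lipase gene Lip4 was not called, at 6.89–68.7 in progenitors and 0.805–8.22 in Sox100B-RNAi (adjusted p = 0.0259).

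Of the 18 heat shock and chaperone genes tested, 6 (33.3%) were called, all higher, against 2.61% of all genes tested that were called higher, and the median was 1.03. Hsp70Ba passed the filter through the depleted libraries alone, and without it 5 were called and the median was 0.50. The co-chaperone stv (starvin), which hands damaged proteins to autophagy, rose from 45.4, 34.9, 45.3, 39.2 and 30.5 to 182, 124 and 180.3 (2.02 ± 0.22, adjusted p = 0.000670). The small heat shock gene Hsp26 rose from 70.01, 78.5, 577, 253 and 226 to 1896, 1919 and 1910.2 (3.41 ± 0.61, adjusted p = 0.00823) and Hsp67Bc from 23.9, 29.04, 95.4, 41.6 and 28.98 to 219, 180.5 and 228 (2.42 ± 0.40, adjusted p = 0.00597). For Hsp26 the 3 depleted libraries lay within 1896–1919, while the progenitor libraries ranged over 70.01–577. The libraries labelled Sox100B-OE were also high, at 143, 81.8 and 134 for stv and 759, 1334 and 3311 for Hsp26, and differed from Sox100B-RNAi by 0.46 (adjusted p = 0.237) and 0.35 (adjusted p = 0.605). The Hsp70 copies called were Hsp70Aa (0.602–5.79 to 14.3–20.2), Hsp70Bb (2.10–11.7 to 30.6–32.8) and Hsp70Ba (0.0411–0.179 to 1.15–3.88), with log2 fold changes of 2.30, 2.38 and 1.55. The sequence these copies share makes the split of reads among them uncertain.

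Apart from stv, every heat shock call was lost when single libraries were left out. Hsp26 lost it without progenitor replicate 1, 2, 4 or 5 (adjusted p up to 0.0406 over all libraries left out), Hsp67Bc without the same 4 (up to 0.0339), Hsp70Aa without progenitor replicate 1, 4 or 5 (up to 0.0428), Hsp70Bb without 2, 4 or 5 (up to 0.0361) and Hsp70Ba whichever of the 5 was left out (up to 0.0406). The first 4 also lost it whichever depleted library was left out, and Hsp70Ba without Sox100B-RNAi replicate 1 or 3. Endoplasmic reticulum folding genes, by comparison, had 0 calls by limma among 17, 4 at an unadjusted p below 0.05 and a median of -0.15. Of 16 metal handling genes MtnA was the 1 called (6.25%, against 3.49% of all genes tested). The other metallothioneins that passed the filter were not called, at -0.26 for MtnB, 0.56 for MtnC, 0.67 for MtnD and 0.76 for MtnE.

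In the immune lists, the antifungal-peptide relative Drsl2 rose from 2.22, 2.30, 0.986, 1.499 and 3.72 to 16.3, 30.5 and 43.3 (3.26 ± 0.37, adjusted p = 0.000894), against 1.63–4.81 in the libraries labelled Sox100B-OE. It was the 1 of 6 antimicrobial peptide genes that was called (16.7%, against 3.49% of all genes tested). The antibacterial peptide gene AttB was at 1.08–2.24 in progenitors and 5.46–20.3 in Sox100B-RNAi (adjusted p = 0.0142). Of the 6 genes tested 4 had a log2 fold change above 0, and the lowest was -2.76. Levels summed over the list overlapped, at 5.77–375 in progenitors and 64.1–203 in Sox100B-RNAi. Of 13 peptidoglycan recognition and IMD control genes limma called 0, with 3 at an unadjusted p below 0.05.

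Among genes that attach cells to the matrix, limma called 0 of 9 integrin and basement membrane genes, with 4 at an unadjusted p below 0.05 and a median of -0.54. Of the 9, 4 did not overlap between the groups, all with lower values in Sox100B-RNAi (8.43% of all genes tested). The laminin alpha chain wb was the nearest to a call, at 18.5, 9.54, 18.7, 11.4 and 19.8 in progenitors and 5.80, 3.58 and 3.08 in Sox100B-RNAi (-1.67 ± 0.31, adjusted p = 0.0101). LanA, the other laminin alpha chain, was at 89.2–103 and 56.8–72.2 (-0.58 ± 0.16, adjusted p = 0.0556). Of 22 septate and adherens junction genes limma called 0, with 4 at an unadjusted p below 0.05 (median -0.07).

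Cell cycle and DNA replication genes had 0 calls by limma among 41 and 12 genes at an unadjusted p below 0.05, with a median of 0.30 and 35 of 41 log2 fold changes above 0. Over all genes tested, 24.1% had an unadjusted p below 0.05 and 2758 of 5408 log2 fold changes were above 0. Of the 41 genes 5 did not overlap between the groups, all with higher values in Sox100B-RNAi, or 12.2% against 9.78% of all genes tested. The lists of cytosolic ribosomal proteins (53 genes, median 0.03), mitochondrial ribosomal proteins (29, -0.05), respiratory chain subunits (32, -0.13), vacuolar ATPase (16, 0.21), proteasome (19, 0.13), glycolysis (11, 0.49) and RNA interference machinery (6, -0.10) held 0 calls by limma each, with 3, 0, 1, 4, 0, 5 and 0 genes at an unadjusted p below 0.05.

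**Figure D5:**
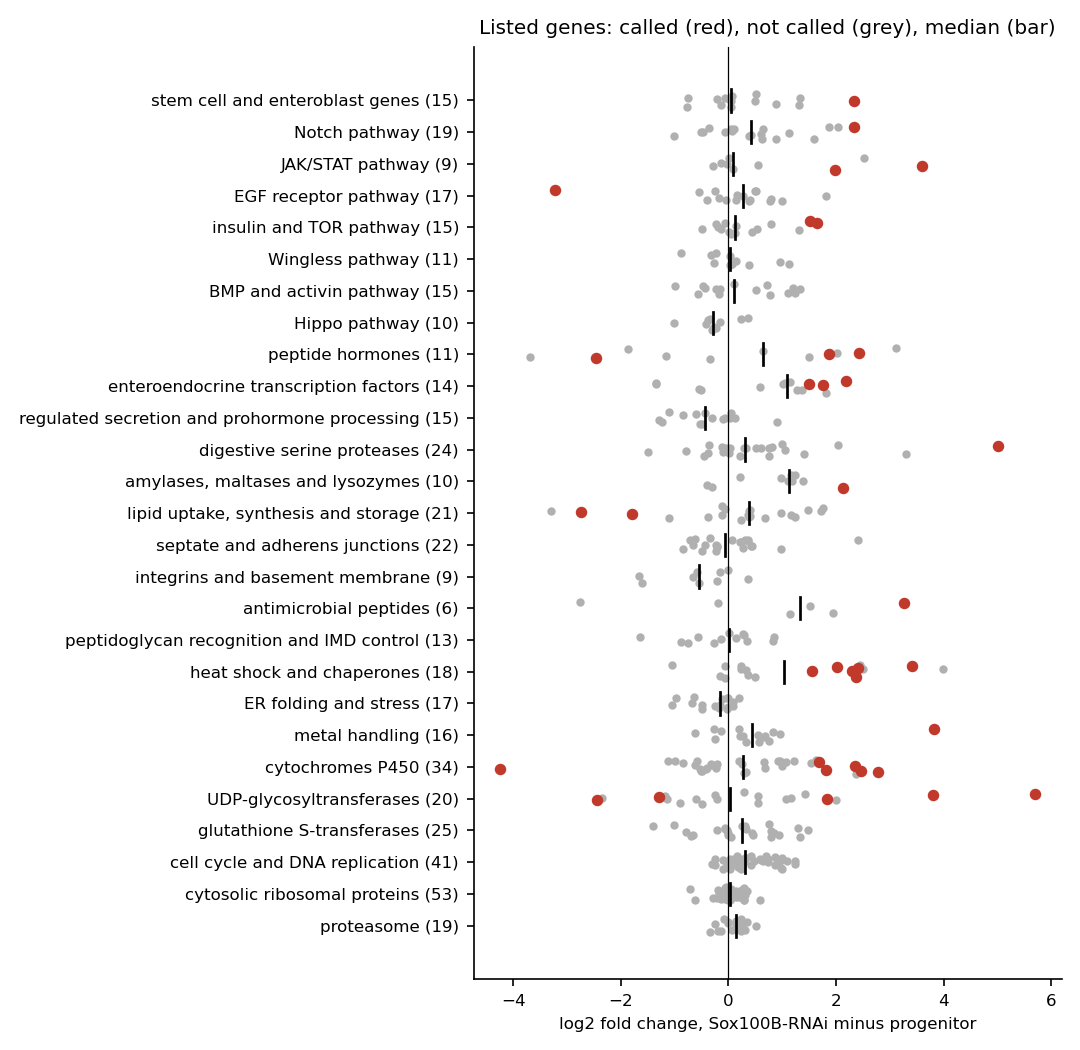
Log2 fold change, Sox100B-RNAi minus progenitor (horizontal axis), of the tested members of 27 gene lists (rows, with the number tested in parentheses), called genes in red, others in grey and a bar at the median of each list. Most list medians lie near 0. The highest are those of the antimicrobial peptides (1.33) and of the amylases, maltases and lysozymes (1.13). Those of the EE transcription factors and heat shock genes lie at 1.10 and 1.03 (1.03 and 0.50 without members that passed the filter through the depleted libraries alone). The hormones spread from -3.69 to 3.12.

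Markers of other cells that a sort could hold were checked over whole lists. Of the genes tested, 0 of 6 visceral muscle genes, 0 of 3 haemocyte genes, 0 of 6 neuron and glia genes and 0 of 2 fat body genes were called by limma, with 3, 2, 1 and 0 at an unadjusted p below 0.05 (24.1% of all genes tested), and 0 of 10 tracheal genes passed the filter. The muscle and haemocyte lists each held 1 gene apart and higher in Sox100B-RNAi and 1 apart and lower. The neuron and glia list held 1 apart and higher (9.78% and 8.43% of all genes tested were apart and higher or lower). Summed over each list, visceral muscle genes ran from 46.0 to 68.1 in progenitors and from 37.8 to 58.8 in Sox100B-RNAi, haemocyte genes from 5.91 to 10.1 and from 7.49 to 14.6, fat body genes from 2.70 to 6.19 and from 3.31 to 5.42, tracheal genes from 1.11 to 7.29 and from 1.92 to 2.88, and neuron and glia genes from 194 to 222 and from 225 to 351. For the last list all 3 depleted libraries were above the progenitors, and its member Gs2, a glutamine synthetase, was at 0.969–5.88 in progenitors and 7.43–26.5 in Sox100B-RNAi (adjusted p = 0.0197). The part of such cells in the differences was not tested.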

How the data were processed

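The authors deposited 1 table of RPKM values with a column for each of the 17 libraries. The submitters' processing notes name STAR, featureCounts 1.6.3, DESeq2 and BDGP6, with no role given. The product of a low RPKM value and the exonic length was a whole number of steps in 98.4 to 99.0% of cases (within 0.05), which gave implied totals of 23.9 to 29.4 M reads in the 8 libraries compared. They describe depth only, and floors of 3 reads a library cover counting error only, since the RNA was amplified and no molecular identifiers are named. Of 17490 features 17216 matched Ensembl release 115 of BDGP6.

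RPKM values of the 11738 nuclear genes without a shared exonic base were rescaled so that their products with exonic length summed to 1000000 in each library. Groups came from the sample titles. Sox100B-RNAi was tested against progenitors with limma 3.58.1 in R 4.3.3 (lmFit, eBayes with a trend, two-sided, Benjamini-Hochberg over all 5408 genes tested), with a pseudocount of 1. The Sox100B-OE contrast was a separate fit of the 6 Sox100B libraries. Sox100B was also tested by exact two-sided permutation. On simulated data for this comparison (5390 genes with the real spread), limma recovered 56 of 100 genes changed 4-fold and 5 of 100 changed 2-fold, with 0 calls among 5190 unchanged genes. With a dispersion of 0.05 (5381 genes) it recovered 99 and 49 of 100, with 4 calls among 5181. Whether the processing of the Sox100B libraries adds calls was not tested.

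Named genes were Sox100B, the 12 largest rises and falls among calls with no overlap of the groups, called members of the lists of progenitor, signalling, enteroendocrine, enterocyte, immune, stress and adhesion roles, and up to 4 uncalled members of highest level in each list. Further members of the 44 lists (among them Mtp) are named as examples chosen after their values were seen. The members and lists were chosen with earlier results of these data known. The alternatives tried were a pseudocount of 0.1, no filter or one at 3.5, median-of-ratios scaling, quantile normalization, other gene sets, 1 fit over 17 libraries, a replicate block, array weights, other thresholds, each replicate left out and the progenitor replicates 1 to 3 or 4 and 5 alone. A filter in 2 libraries, and counts without genes that passed the filter through the depleted libraries alone, were added after seeing the data.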

Additional observations from a re-analysis of the deposited data

Results flagged for a closer look

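The 5 progenitor libraries of 43 genes were tested for 1 that stands apart. In 6 of the genes the highest or lowest library was far from the other 4. For normally distributed values chance gives about 1 in 20. Delta stood at 27.7 in progenitor replicate 1 against 12.5 to 15.8 in the others, so the highest wild type level came from 1 library. Tsp42Ee was at 458 in progenitor replicate 3 against 965 to 1215, and Mal-A3 at 1.33 in progenitor replicate 5 against 4.39 to 6.18. The other flags were of genes near 0 in every progenitor library, where that rate does not hold. The count of 6 can therefore not be set against it. Vajk3 was at 0.0581 in replicate 3 against 0 in the others, rdo at 0.259 in replicate 4 against 0.0426 to 0.0743, and snRNA:U5:23D at 0.728 in replicate 5 against 0.

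Outside the genes compared, mitochondrial features took a mean of 24.7% of the assigned reads in Sox100B-RNAi and 19.6% in the libraries labelled Sox100B-OE, and 0% in progenitors, where all 37 such features were listed at 0.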

How the results depend on the processing

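The 189 calls (141 higher, 48 lower) became 107 (87 and 20) with no filter on low values, 2191 (1995 and 196) over all features as deposited, 2098 (1805 and 293) over all annotated nuclear genes, 420 (280 and 140) in 1 fit of all 17 libraries and 522 (335 and 187) at an adjusted p below 0.05, and array weights gave 74 lower calls. As deposited, the median of all features shifted to 0.20. Leaving out 1 library gave 35 to 166 calls (24 to 114 higher, 9 to 52 lower). With the filter in 2 libraries, added after seeing the data, calls without Sox100B-RNAi replicate 1, 2 or 3 were 95 (75 and 20), 106 (82 and 24) and 74 (61 and 13), of which 22, 31 and 16 were of listed genes. The share of higher calls was 74.6%, but 62.8% (108 and 64) with a pseudocount of 0.1, 91.1% as deposited, 86.0% over all nuclear genes and 64.2% at an adjusted p below 0.05. Calls among listed genes, 51 in all, became 31, 93, 98, 96 and 126 under those first 5 settings, 32 with progenitor replicates 1 to 3 alone and 10 to 43 with 1 library left out. Sox100B, at -1.90, ranged from -2.07 to -1.64 with 1 library left out (adjusted p up to 0.0741) and was -1.44 and -2.60 against progenitor replicates 1 to 3 or 4 and 5 alone, where the exact test cannot pass 0.05. In limma it was called as deposited (-1.94, adjusted p = 0.00187), over all nuclear genes (-2.10, 0.00147), in the 17-library fit (0.00100) and with replicates 4 and 5 alone (0.00338).

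With the replicate block 187 genes were called (128 and 59), 116 of them among the 189, and Sox100B stood at -1.44 (adjusted p = 0.0257). Deviations of same-numbered libraries correlated at -0.037, -0.155 and 0.236. Only Sox100B-RNAi replicate 3 correlated best with the progenitor library of its own number. So few pairs cannot settle whether the numbers pair the samples.

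Of the 42 called named genes, 20 kept the call without each of the 8 libraries (filter in 2 libraries where a depleted one was left out), and with the filter in 3 CG43187 and Ugt35A1 also lost it once. No named call changed sign under any alternative. Of the 159 named genes not called, 63 changed the sign of their fold under at least 1, in 265 of 3900 values. Depth limits the short and rare genes named with their reads.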

Other observations

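Detoxification genes moved in both directions, and the genes of this section were chosen after their values were seen. Of 34 cytochromes P450 tested, 5 rose and 1 (Cyp6a17) fell, against 2.61% and 0.888% of all genes tested. Cyp6a8 and Cyp12d1-d passed the filter on low values through the depleted libraries alone, and Cyp6a17 through the progenitors alone. Cyp12a4 rose from 18.5–45.5 to 123–203 (2.47 ± 0.30, adjusted p = 0.00121) and Cyp6d5 from 21.8–38.4 to 70.7–141 (1.81 ± 0.27, adjusted p = 0.00341). Cyp6a2 and Cyp6a8, known from insecticide-resistant flies, rose from low levels, 0.343–2.19 to 3.76–12.8 and 0–0.654 to 3.70–14.4, and Cyp6a8 was higher still in the libraries labelled Sox100B-OE at 8.48–60.7. Cyp12d1-d was at 0 in all 5 progenitor libraries and at 1.18, 2.75 and 3.07 in Sox100B-RNAi, at least 16.1-fold higher, though its near-identical copy makes the reads uncertain. Of 20 sugar-transferring UGT genes, 3 rose and 2 fell, and of the 3, Ugt36F1 and Ugt49C1 passed the filter through the depleted libraries alone. Beside Ugt36F1, its chromosomal neighbour Ugt36D1 rose from 1.55–3.74 to 27.1–62.4 (3.80 ± 0.33, adjusted p = 0.000164), and Ugt302C1 fell from 217–353 to 82.4–144 (-1.28 ± 0.23, adjusted p = 0.00850). Limma called 0 of 25 glutathione S-transferases, with 8 at an unadjusted p below 0.05, whereas Gclm, a subunit of the enzyme that starts glutathione synthesis, rose from 87.6–154 to 388–609 (2.0 ± 0.24, adjusted p = 0.00106). The calls of Ugt36D1 and Gclm were kept whichever of the 8 libraries was left out. Those of Cyp12a4 (adjusted p = 0.0105) and Cyp6a8 (0.0121) were lost without Sox100B-RNAi replicate 3, that of Cyp6d5 without progenitor replicate 1 or Sox100B-RNAi replicate 1 or 3 (up to 0.0203) and that of Cyp12d1-d without progenitor replicate 1 or 5 or Sox100B-RNAi replicate 2 or 3 (up to 0.0235). Cyp6a2 lost it without progenitor replicate 1, 2, 3 or 5 or Sox100B-RNAi replicate 2 or 3 (up to 0.0436), and Ugt302C1 without any single library other than Sox100B-RNAi replicate 2 (up to 0.0454).

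Further regulators were called outside the lists. The regulator edl, which acts on EGF receptor output, rose from 43.95, 29.7, 69, 60.4 and 26.4 to 297, 234 and 258 (2.58 ± 0.32, adjusted p = 0.00128), with 27.3–32.3 in the libraries labelled Sox100B-OE. The repressor hry (hairy) rose from 19.8–29.4 to 89.9–182 (2.56 ± 0.26, adjusted p = 0.000546), the zinc finger factor bowl from 2.17–12.2 to 42.9–48.4 (2.51 ± 0.42, adjusted p = 0.00612) and the ligand hh (hedgehog) from 1.33–4.88 to 7.48–17.4 (2.05 ± 0.37, adjusted p = 0.00897). The RNA-binding protein lin-28, which acts in midgut stem cells, fell from 94.8–198 to 31.4–45.3 (-1.81 ± 0.25, adjusted p = 0.00229). Further single genes called lower, of no list, were ATP8A, at 12.99–25.6 and 3.94–6.23 (-1.94 ± 0.27, adjusted p = 0.00259), ATP8B, at 17.96–50.5 and 5.44–13.9 (-2.06 ± 0.38, adjusted p = 0.00985), and scramb1, at 397–601 and 131–244 (-1.43 ± 0.24, adjusted p = 0.00695). Among these the call of hry was kept whichever library was left out, while edl lost it without Sox100B-RNAi replicate 3 (adjusted p = 0.0104), lin-28 without replicate 1 or 3 (up to 0.0151) and ATP8A without replicate 2 or 3 (up to 0.0176). Each single depleted library was needed for the calls of bowl, hh, ATP8B and scramb1, as were progenitor replicates 1 and 5 for bowl (up to 0.0314), 1, 3, 4 and 5 for hh (up to 0.04999), 1, 2, 3 and 5 for ATP8B (up to 0.0536) and 1, 2, 4 and 5 for scramb1 (up to 0.0296).

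Cpr51A, a cuticle protein gene, rose from 625, 759.8, 304, 765 and 679 to 2217, 1608 and 2396 (1.78 ± 0.31, adjusted p = 0.00757) and was at 12.8, 18.7 and 37.9 in the libraries labelled Sox100B-OE, far below the wild type. It was the 1 called of 11 cuticle protein genes tested (9.09%, against 3.49% of all genes tested). The median of that list was -0.54, with 1 gene apart and higher in Sox100B-RNAi and 4 apart and lower (9.78% and 8.43% of all genes tested). The stress-induced secreted peptide gene TotE was at 0 in all 5 progenitor libraries and at 2.97, 5.48 and 5.12 in Sox100B-RNAi, at least 8.98-fold higher. TotE passed the filter on low values through the depleted libraries alone. GILT2, a thiol reductase, rose from 22.6–62.1 to 256–272 (2.84 ± 0.29, adjusted p = 0.000546), with 5.03–12.98 in the libraries labelled Sox100B-OE. The calls of TotE and GILT2 were kept whichever library was left out, and that of Cpr51A was lost without progenitor replicate 1, 2 or 5 or any single depleted library (adjusted p up to 0.0436).

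Some called genes lay beside each other. Of the 189, 33 (17.5%) had an adjacent tested gene called in the same direction, such as Ance with Ance-2, upd2 with lncRNA:CR45607, Hsp67Bc with Hsp26, and lbm with Tsp42En, the last pair falling, of which Tsp42En lost its call without progenitor replicate 1 or 5 or any single depleted library (adjusted p up to 0.0242). Of the 5219 genes not called, 322 (6.17%) had a called neighbour in either direction. Some neighbours differed in direction, with aos lower and st, an eye pigment transporter gene, higher (0.0775–0.382 to 7.66–23.7, 3.76 ± 0.34, adjusted p = 0.000236). Of the genes named here, Ance-2, lncRNA:CR45607 and st passed the filter on low values through the depleted libraries alone. By chromosome arm, the share called ran from 2.56% on X to 4.60% on 2L, and limma called 0 of 44 genes on chromosome 4.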
